A study of Homo sapiens with 30 samples.

Results

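The genes described here are 9 components of the epithelial tight junction: the claudins CLDN1, CLDN3, CLDN4, CLDN7 and CLDN8, the membrane proteins OCLN and F11R, and the scaffold proteins TJP1 and TJP3. They were taken by symbol, and all 9 were found among the 26443 genes that carry values in both deposited tables. RNA had been sequenced from LNCaP, a human prostate cancer cell line with an epithelial, androgen-responsive character, in 30 libraries forming 10 groups of 3. In the first experiment cells were infected for 5 days with a control shRNA (pLKO) or with shRNA against USP7 (shUSP7), BUB3 (shBUB3) or FOXA1 (shFOXA1). In the second they were transfected for 4 days with control siRNA (siCtrl) or with siRNA against EZH2 (siEZH2). In the third they were infected for 5 days with a control shRNA (pGIPZ), with shRNA against FOXA1 and a control for the introduced gene (shFoxA1), or with that shRNA plus HA-tagged wild-type FOXA1 (shFoxA1 WT) or HA-tagged FOXA1 carrying alanine in place of a lysine (shFoxA1 K295A). The time point of the third K295A library is not covered by the protocol text, and all groups grew in the same medium. The series concerns the stability of FOXA1 protein, whereas these libraries measured RNA.

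Tight junctions seal the space between neighbouring epithelial cells at the apical end of their lateral membranes. Claudins are small membrane proteins with 4 spans whose outer loops meet those of the next cell and set which ions and solutes pass. OCLN (occludin) and F11R (junctional adhesion molecule A) span the membrane beside them, and TJP1 and TJP3 (ZO-1 and ZO-3) tie the membrane proteins to actin. CLDN3, CLDN4 and CLDN7 are typical claudins of glandular epithelium, the prostate included. Of the 4 targeted genes, FOXA1 encodes a transcription factor of luminal prostate cells that opens chromatin, EZH2 a polycomb histone methyltransferase, USP7 an enzyme that removes ubiquitin, and BUB3 a protein of the mitotic checkpoint.

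In GENCODE 29 (GRCh38), CLDN3 (chr7:73768997-73770270, minus strand) and CLDN4 (chr7:73799542-73832693, plus strand) are neighbours, and their RefSeq starts lie 60726 bases apart. CLDN7 lies at chr17:7259903-7263983 on the minus strand, CLDN1 at chr3:190305701-190322475 on the minus strand and CLDN8 at chr21:30214006-30216073 on the minus strand. CLDN3 and CLDN8 each have 1 exon. OCLN lies at chr5:69492292-69558104 on the plus strand, F11R at chr1:160995211-161021348 on the minus strand, TJP1 at chr15:29699367-29968865 on the minus strand and TJP3 at chr19:3708109-3750813 on the plus strand. OCLN has an unprocessed pseudogene copy, OCLNP1, on the same chromosome (chr5:71074225-71093193), so its values may hold reads that are shared with that copy. CLDN7 overlaps ELP5 on the opposite strand by 38 bases, and F11R overlaps a protein-coding gene model (AL591806.3) on its own strand by 23392 bases. How counting treated strand and shared reads was not given in the sources used here.

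The RefSeq table (GRCh38.p14) held 13 upstream windows of 250 bases for 7 of the 9 genes, and CLDN8 and F11R were not matched. FOXA1 is a forkhead factor, and repressors of the SNAI family bind E-boxes, so the windows were searched on both strands for the forkhead words TGTTTAC and TGTTTGC, the E-box word CAGGTG and the grainyhead word AACNGGTT, none of which contains another. Of 35116 windows in that table, 2.98% held TGTTTAC, 3.23% TGTTTGC, 17.5% CAGGTG and 1.49% AACNGGTT. Of the members' windows, 4 overlap no annotated exon. Shown here from those 4 are CLDN3, CLDN7 and TJP1 (minus strand, chr7:73770271-73770520, chr17:7263214-7263463 and chr15:29969050-29969299), because CLDN3 and CLDN7 changed in the same direction in every comparison with an own control in which both were called, while TJP1 had the other sign in the pGIPZ experiment. Capitals mark a match to a searched word.
CLDN3: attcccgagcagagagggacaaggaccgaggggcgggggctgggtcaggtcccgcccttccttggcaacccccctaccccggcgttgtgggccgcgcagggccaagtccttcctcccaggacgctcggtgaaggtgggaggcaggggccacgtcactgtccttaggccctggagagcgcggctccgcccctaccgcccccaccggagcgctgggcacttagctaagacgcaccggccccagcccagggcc
CLDN7: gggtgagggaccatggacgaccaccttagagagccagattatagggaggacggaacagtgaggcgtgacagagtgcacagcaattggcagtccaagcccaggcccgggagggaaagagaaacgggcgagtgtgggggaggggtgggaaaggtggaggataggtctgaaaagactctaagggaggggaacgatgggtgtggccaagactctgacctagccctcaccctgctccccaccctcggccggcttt
TJP1: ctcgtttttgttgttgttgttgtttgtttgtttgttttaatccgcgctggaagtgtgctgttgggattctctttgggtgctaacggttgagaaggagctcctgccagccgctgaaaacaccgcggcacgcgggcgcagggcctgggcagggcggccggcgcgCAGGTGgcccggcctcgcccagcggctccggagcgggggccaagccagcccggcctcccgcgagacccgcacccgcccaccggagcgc
The CLDN3 and CLDN7 windows shown held none of the 4 words, and the TJP1 window held 1 E-box word, 88 bases before the start. The CLDN7 window shown also lies within the annotated gene, which extends to chr17:7263983. A second CLDN7 window, before a start further inside the gene, held 4 E-box words. Its last 30 bases (minus strand, chr17:7262479-7262508) carry 2 of them, again in capitals.
CLDN7 internal start: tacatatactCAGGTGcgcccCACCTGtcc
E-box words also stood once in each of the 2 OCLN windows and once in a TJP3 window, and a forkhead word (TGTTTGC) stood once, before an internal TJP1 start. The CLDN4 window lies within the annotated gene and overlaps an annotated exon and an untranslated region. Neither it nor the CLDN1 window held any of the 4 words.

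Depth could be read only in relative terms. Against the first pLKO library it was 0.900 to 1.30 with pLKO vectors and 0.602 to 0.831 with siRNA, and among pGIPZ libraries it was 0.847 to 1.30 against the first of them. Between 11262 and 12000 genes reached a value of 1 in each library. The FPKM of shBUB3 replicate 3 summed to 367614, while the other 11 libraries of its experiment summed to at most 306578. All 10 luminal prostate markers reached a value of 1 in every library, with a summed level of 649 to 2693. Of 5 basal markers, 0 to 2 reached 1 in a library. TP63 was at most 0.0253 and KRT5 at most 0.215, while KRT14 went up to 7.38 RPKM and KRT15 up to 1.54 RPKM. Of 6 endothelial markers 0 to 1 reached 1 in a library, with CDH5 at most 0.0522 but VWF up to 4.57 FPKM. Of 6 immune markers 1 to 2 reached 1 in a library, of 7 stromal markers 2 to 4 did, and of 6 urothelial or other epithelial markers 1 to 2 did, with summed levels of at most 35.2, 19.2 and 8.76. The knockdowns were visible in the targeted RNA. USP7 stood at 28.2 and 6.21 FPKM without and with its shRNA, BUB3 at 36.3 and 4.00 FPKM, and EZH2 at 12.6 and 4.98 FPKM without and with its siRNA. FOXA1 stood at 115.8 FPKM in pLKO and 59.0 in shFOXA1, and at 131.5 RPKM in pGIPZ, 82.5 in shFoxA1, 151.8 in shFoxA1 WT and 151.4 in shFoxA1 K295A, where native and introduced FOXA1 are counted together. Some targeted RNAs also moved in other knockdowns. EZH2 stood at 12.6 FPKM in pLKO, 6.27 in shUSP7, 4.55 in shBUB3 and 5.87 in shFOXA1. BUB3 stood at 15.6 FPKM in shFOXA1, and FOXA1 at 133 in siCtrl and 91.2 in siEZH2. In shFoxA1, BUB3 (31.0 RPKM, 32.1 in pGIPZ) and EZH2 (9.59, 9.78 in pGIPZ) were not called. Whether replicates came from separate cultures is not in the labels, and the p-values therefore reflect only how these samples spread, which may be technical. In bulk RNA, fewer expressing cells and less RNA per cell cannot be told apart.

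FPKM and RPKM divide a gene's reads by its length, so levels can be ordered between genes within a library. CLDN7 and CLDN4 were the most abundant of the 9 in each control. In pLKO libraries CLDN7 stood at 126.9, 127.0 and 124.3 FPKM and CLDN4 at 121.2, 120.8 and 119.5 FPKM, close but without overlap. CLDN3 followed at a mean of 50.5 ± 0.176 FPKM (SD, n = 3, as for all levels here), F11R at 30.1 ± 0.623 and TJP1 at 15.9 ± 0.686. OCLN stood at 8.50 ± 0.289, TJP3 at 4.58 ± 0.0595 and CLDN8 at 3.11 ± 0.222 FPKM. CLDN1 was close to 0, at 0.165, 0.0366 and 0.0306 FPKM. The siRNA controls kept this order with 3 exceptions: CLDN4 (186 ± 3.49 FPKM) was above CLDN7 (144 ± 8.79), F11R (45.6 ± 2.71) and CLDN3 (42.6 ± 5.49) overlapped, and so did TJP3 (3.88 to 5.32) and CLDN8 (3.86 to 4.27). In the pGIPZ control CLDN4 stood at 431 ± 6.39 RPKM, CLDN7 at 210.2 ± 1.42, CLDN3 at 94.3 ± 2.91, F11R at 43.9 ± 0.727 and TJP1 at 10.3 ± 0.209. OCLN followed at 8.88 ± 0.476 RPKM, and CLDN8 (6.80 ± 0.483) and TJP3 (6.46 ± 0.164) overlapped. CLDN1 stood at 0.371 ± 0.0775 RPKM. The plots of levels by library show every value.

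**Figure D1:**
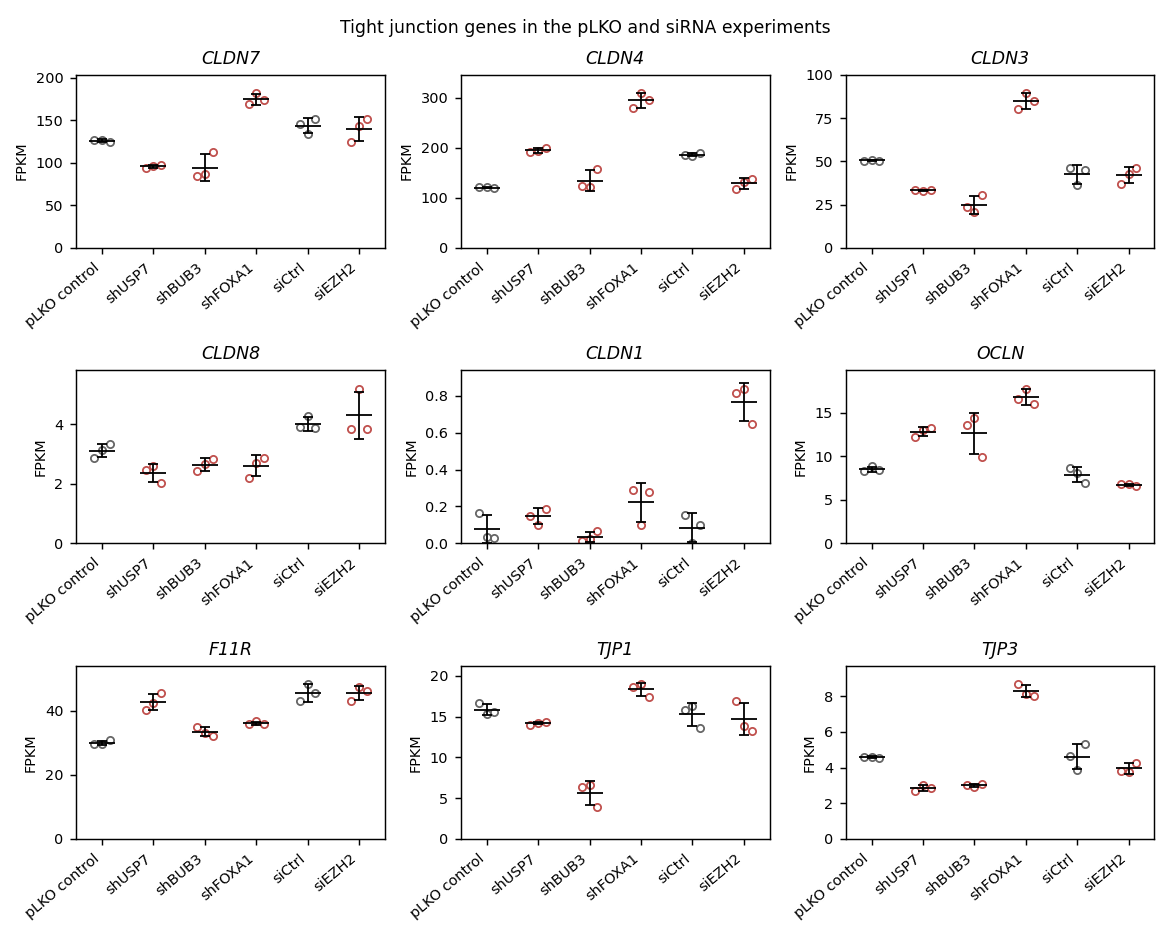
FPKM of the 9 genes in each library of the pLKO and siRNA experiments (open circles, 3 per group, controls in grey), with the group mean and SD in black. CLDN3, CLDN4, CLDN7, OCLN, F11R and TJP3 are all above the pLKO libraries in shFOXA1, TJP1 is lowest in shBUB3, and CLDN1 is highest in siEZH2, at 0.650 to 0.839.

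**Figure D2:**
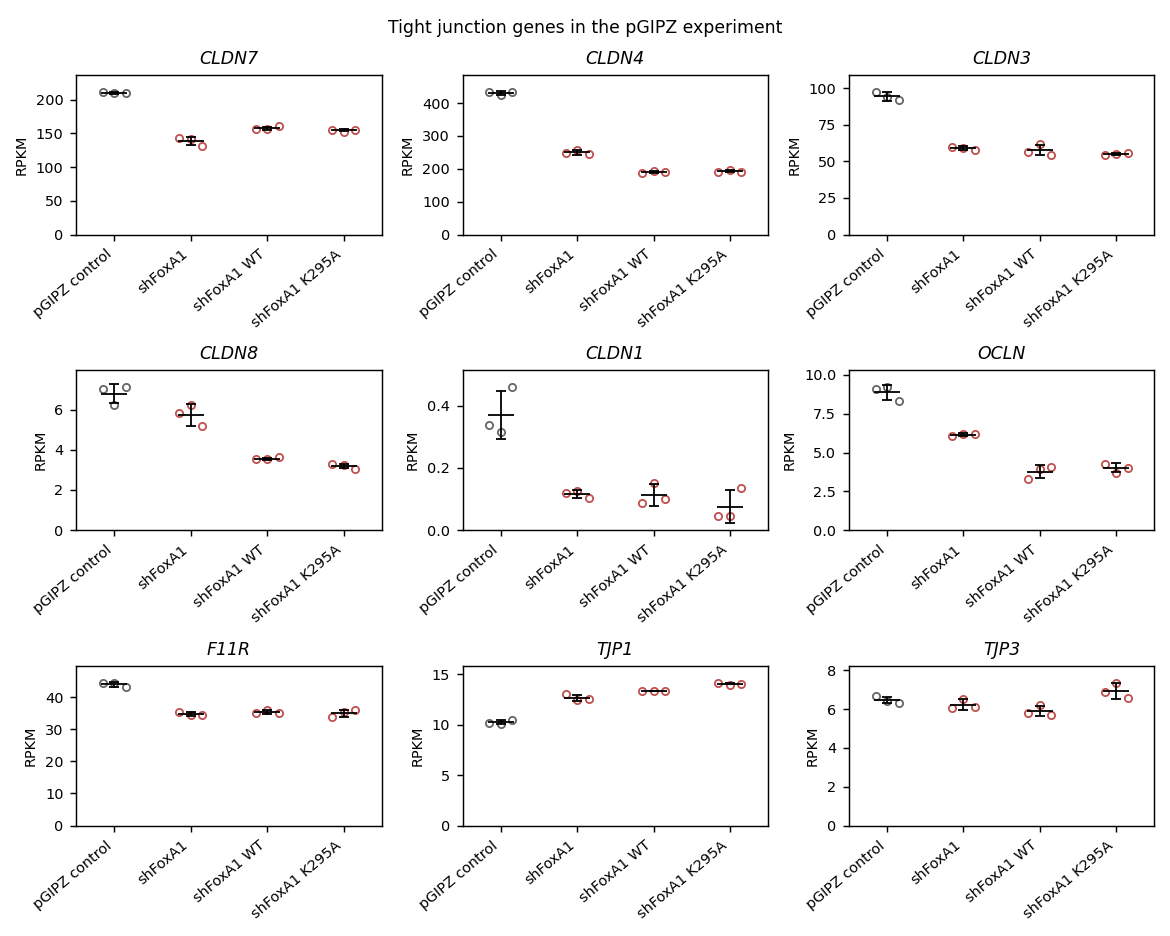
RPKM of the 9 genes in each library of the pGIPZ experiment, drawn in the same way. CLDN4 drops from 423 to 435 RPKM in the control libraries to 245 to 258 in shFoxA1 and 188 to 196 in the re-expression groups.

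For the effect of FOXA1 loss, shFOXA1 was compared with pLKO. The claudins CLDN4, CLDN3 and CLDN7, the membrane proteins OCLN and F11R and the scaffold TJP3 all rose. CLDN4, a claudin that limits sodium passage, stood at 279.3, 309.4 and 295.3 FPKM in the 3 shFOXA1 libraries against 119.5 to 121.2 in pLKO. Its lowest knockdown library was thus above every control, and the log2 fold change on the value + 1 scale was 1.28 ± 0.091 (SE, limma, adjusted p = 1.5e-07). OCLN stood at 16.5, 17.8 and 15.96 FPKM against 8.26, 8.82 and 8.42, a change of 0.90 ± 0.10 (adjusted p = 1.1e-05). CLDN3, a sealing claudin, stood at 80.4, 89.5 and 84.7 FPKM against 50.3 to 50.7, a change of 0.74 ± 0.11 (adjusted p = 6.0e-05). TJP3 stood at 8.68, 8.14 and 8.03 FPKM against 4.51 to 4.62, a change of 0.73 ± 0.053 (adjusted p = 1.8e-07). For all of these the groups did not overlap. CLDN7, at 169 to 182 FPKM, changed less (0.47 ± 0.091, adjusted p = 6.7e-04), and F11R, at 35.8 to 36.7 FPKM, changed by 0.26 ± 0.051 (adjusted p = 8.0e-04).

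In this comparison 6 of the 8 tested members were higher, where 25.2% of all 12524 genes tested were higher, and 0 were lower, where 45.1% of all genes were. At an unadjusted p under 0.05 in limma 0 members were lower, but all genes were not counted at that threshold. The members' median was 0.60 against -0.15 for all genes tested. TJP1, at 18.7, 19.0 and 17.4 FPKM against 15.4 to 16.6, did not pass (0.20 ± 0.13, adjusted p = 0.18), and neither did CLDN8 (-0.20, adjusted p = 0.075). After median-ratio scaling, which moved the median of all genes up by 0.16, TJP1 passed at 0.38 (adjusted p = 0.016), and the share of higher genes among all called genes went from 35.9% to 50.1%. TJP1 also passed when only shFOXA1 and pLKO were fitted (adjusted p = 0.0048), and CLDN8 passed without the third shFOXA1 library (-0.25, adjusted p = 0.045).

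The other FOXA1 knockdown, shFoxA1 against pGIPZ, gave lower values for most of the same genes. CLDN4 stood at 248, 258 and 245 RPKM against 435, 423 and 434 in the control, a change of -0.78 ± 0.024 (adjusted p = 1.8e-10). CLDN3 stood at 60.1, 59.0 and 57.4 RPKM against 91.9 to 97.5 (-0.67 ± 0.041, adjusted p = 8.3e-08). CLDN7 stood at 143, 141 and 132 RPKM against 209.2 to 211.8 (-0.60 ± 0.029, adjusted p = 9.5e-09). No knockdown library of these 3 claudins reached a control library. OCLN stood at 6.03, 6.22 and 6.21 RPKM against 8.33 to 9.21 (-0.46 ± 0.068, adjusted p = 1.4e-04), and F11R at 34.4 to 35.5 RPKM against 43.1 to 44.5 (-0.33 ± 0.030, adjusted p = 2.8e-06). CLDN8, a claudin best known from kidney tubules, fell by 0.21 on the log2 scale (adjusted p = 0.020), a call lost when only shFoxA1 and pGIPZ were fitted (adjusted p = 0.056) and without shFoxA1 replicate 3 (adjusted p = 0.086), pGIPZ replicate 1 (adjusted p = 0.066) or pGIPZ replicate 3 (adjusted p = 0.074).

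The scaffold TJP1 rose in that comparison, from 10.2, 10.1 and 10.5 RPKM to 13.0, 12.5 and 12.6 (0.28 ± 0.032, adjusted p = 1.9e-05). TJP3 did not pass, at 6.05, 6.54 and 6.09 RPKM against 6.34 to 6.65 (-0.05, 95% interval -0.16 to 0.07). Of the 8 tested members 6 were lower, where 24.2% of all 12563 genes tested were lower, and 1 was higher, where 25.0% were. The members' median was -0.40 against 0.00 for all genes. CLDN3, CLDN4, CLDN7, OCLN and F11R thus had opposite signs in the 2 FOXA1 knockdowns, which differ in vector, control and table, and that difference was not tested because each table has its own normalization. These 5 were higher without overlap in shFOXA1 and lower without overlap in shFoxA1, 5 of the 8 members, and 5.10% of the 12042 genes tested in both experiments did the same, while 9.62% moved apart in the reverse directions. CLDN8 was at -0.20 and -0.21 and TJP1 at 0.20 and 0.28. The 2 experiments also differed in remaining FOXA1 RNA, with a log2 change of -0.96 in the pLKO and -0.67 in the pGIPZ experiment, and the part of this in the result was not tested. The plot of FOXA1 comparisons sets these values side by side.

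**Figure D3:**
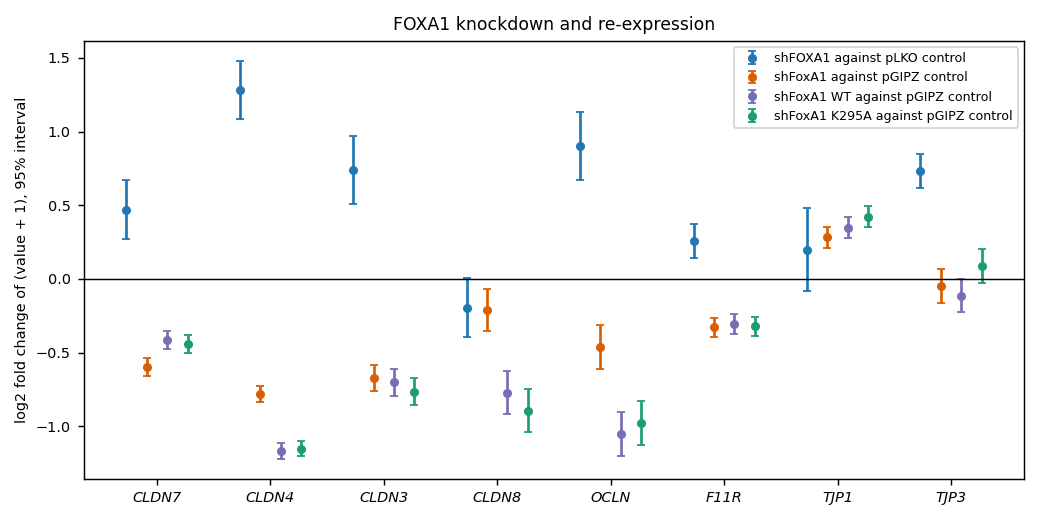
Log2 fold change of (value + 1), with its 95% interval from limma, for the 8 tested members in the shFOXA1 knockdown against pLKO and in the 3 pGIPZ groups against their control. CLDN4 is at 1.28 in the first and at -0.78, -1.17 and -1.15 in the others, whereas TJP1 is above 0 in all 4.

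The re-expression groups carried the shRNA together with introduced FOXA1. Against the pGIPZ control, shFoxA1 WT had the same 6 members lower and TJP1 higher. CLDN4 stood at 188, 195 and 191 RPKM, further below the control (423 to 435) than in shFoxA1, a change of -1.17 ± 0.024 (adjusted p = 1.5e-11). OCLN stood at 3.31, 3.96 and 4.04 RPKM (-1.05 ± 0.068, adjusted p = 3.2e-07), and CLDN8 at 3.52, 3.54 and 3.63 RPKM against 6.25 to 7.12 (-0.77 ± 0.066, adjusted p = 3.2e-06). No library of these 3 genes reached the control range. CLDN3 was at -0.70, CLDN7 at -0.41, F11R at -0.31 and TJP1 at 0.35, all called. TJP3 was at -0.11 (adjusted p = 0.094) and passed after scaling (-0.21, adjusted p = 0.0060).

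That made 6 of 8 lower, where 11.8% of all genes were, and 1 of 8 higher, where 33.7% were. In shFoxA1 K295A the count was again 6 of 8 lower, where 12.8% of all genes were, and 1 of 8 higher, where 37.8% were. CLDN4 stood at 192, 196 and 192 RPKM (-1.15 ± 0.024), OCLN at 4.29, 3.71 and 4.03 RPKM (-0.98 ± 0.068) and CLDN8 at 3.30, 3.23 and 3.06 RPKM (-0.89 ± 0.066). CLDN3 was at -0.77, CLDN7 at -0.44, F11R at -0.32 and TJP1 at 0.42, while TJP3 did not pass (0.09, adjusted p = 0.18). The medians of the members were -0.56 in shFoxA1 WT and -0.60 in shFoxA1 K295A, against 0.10 and 0.11 for all genes. Median-ratio scaling moved the higher share of all called genes from 74.0% to 47.6% in shFoxA1 WT and from 74.7% to 48.4% in shFoxA1 K295A, with the median of all genes brought to 0.00 and 0.01, and the 6 lower members and TJP1 stayed called in both.

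Set directly against shFoxA1, CLDN7 lay nearer to the control level in both re-expression groups, and CLDN4, OCLN and CLDN8 lay further from it. CLDN7 stood at 156, 156 and 160.5 RPKM in shFoxA1 WT against 143, 141 and 132 in shFoxA1 and 209.2 to 211.8 in the control, a change of 0.18 ± 0.029 (adjusted p = 1.9e-04) that became 0.08 after scaling (adjusted p = 0.028). OCLN (-0.59 ± 0.068), CLDN8 (-0.56 ± 0.066) and CLDN4 (-0.39 ± 0.024) moved further from the control. The counts were 1 of 8 higher, where 36.6% of all genes were, and 3 of 8 lower, where 18.9% were, and scaling, with which the higher share of all called genes went from 65.9% to 49.1%, added CLDN3 (-0.13) and TJP3 (-0.15) to the lower ones. With K295A the lower members were CLDN8 (-0.68 ± 0.066), OCLN (-0.52 ± 0.068) and CLDN4 (-0.37 ± 0.024), 3 of 8 where 18.3% of all genes were lower. CLDN7 (0.16), TJP1 (0.14) and TJP3 (0.13, adjusted p = 0.045) were higher, 3 of 8 where 38.7% of all genes were. The TJP3 call was lost without a filter (adjusted p = 0.063), when only these 2 groups were fitted (0.086), without shFoxA1 K295A replicate 1 (0.081) or replicate 2 (0.17), and without shFoxA1 replicate 1 (0.13) or replicate 3 (0.12). After scaling, with a higher share of 48.5% in place of 67.9% over all called genes, CLDN7 (0.04), TJP1 (0.03) and TJP3 (0.03) no longer passed, and CLDN3 (-0.21) and F11R (-0.11) became lower.

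The K295A change was then compared with wild-type FOXA1. Of the 8 members, 0 passed in limma between the 2 groups. At an unadjusted p under 0.05 there were 2 (TJP3 and TJP1, both higher with K295A), but all genes were not counted at that threshold. At an adjusted p under 0.05, 0.0876% of all genes were higher and 0.0955% were lower, and scaling moved the higher share of these few calls from 47.8% to 33.3%. TJP3 stood at 6.88, 7.36 and 6.56 RPKM with K295A and 5.81, 6.20 and 5.68 with wild type, a difference of 0.20 (95% interval 0.09 to 0.31, adjusted p = 0.19) without overlap. TJP1 differed by 0.08 (0.00 to 0.15). CLDN4 differed by 0.02 (-0.04 to 0.07), CLDN7 by -0.03 (-0.09 to 0.03), CLDN3 by -0.06 (-0.15 to 0.03) and CLDN8 by -0.12 (-0.27 to 0.02). OCLN differed by 0.07 (-0.08 to 0.22) and F11R by -0.02 (-0.08 to 0.05).

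Knockdown of USP7 split the members. CLDN4 rose to 191.5, 192.9 and 199.9 FPKM from 119.5 to 121.2 in pLKO (0.69 ± 0.091, adjusted p = 4.2e-05). OCLN rose to 12.2, 13.0 and 13.3 FPKM from 8.26 to 8.82 (0.54 ± 0.10, adjusted p = 7.7e-04), and F11R to 40.4, 42.4 and 45.5 FPKM from 29.7 to 30.8 (0.49 ± 0.051, adjusted p = 6.2e-06). CLDN3 moved the other way, to 33.2, 32.6 and 33.6 FPKM from 50.3 to 50.7 (-0.59 ± 0.11, adjusted p = 4.2e-04), although it neighbours CLDN4 on chromosome 7. TJP3 fell to 2.70, 3.01 and 2.84 FPKM from 4.51 to 4.62 (-0.54 ± 0.053, adjusted p = 3.9e-06) and CLDN7 to 93.3, 96.1 and 97.4 FPKM from 124.3 to 127.0 (-0.40 ± 0.091, adjusted p = 0.0026). None of these groups overlapped. CLDN8, at 2.46, 2.58 and 2.01 FPKM against 2.88 to 3.32, was lower (-0.30, adjusted p = 0.014), but not without shUSP7 replicate 3 (-0.22, adjusted p = 0.065) or pLKO replicate 3 (-0.26, adjusted p = 0.055). TJP1 (-0.15, adjusted p = 0.32) passed when only shUSP7 and pLKO were fitted (adjusted p = 0.0077). The counts were 3 of 8 higher, where 29.1% of all genes were, and 4 of 8 lower, where 33.0% were, and the median was -0.22 against -0.02 for all genes.

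After knockdown of BUB3 the scaffold TJP1 had the largest change among the members. It stood at 6.33, 6.55 and 3.93 FPKM against 16.6, 15.4 and 15.6 in pLKO, a change of -1.38 ± 0.13 (adjusted p = 2.1e-06). CLDN3 stood at 23.3, 20.7 and 30.5 FPKM against 50.3 to 50.7 (-1.01 ± 0.11, adjusted p = 5.8e-06), TJP3 at 3.03, 2.89 and 3.08 FPKM (-0.48 ± 0.053, adjusted p = 9.2e-06) and CLDN7 at 84.1, 86.3 and 112 FPKM (-0.43 ± 0.091, adjusted p = 0.0015). All 3 knockdown libraries lay below all controls in each of these genes. OCLN rose to 13.6, 14.3 and 9.94 FPKM (0.51 ± 0.10, adjusted p = 0.0012). F11R, at 34.9, 33.2 and 32.3 FPKM against 29.7 to 30.8, was higher by 0.15 (adjusted p = 0.024), a call lost when only shBUB3 and pLKO were fitted (adjusted p = 0.072) and without shBUB3 replicate 1 (adjusted p = 0.090), pLKO replicate 1 (adjusted p = 0.068) or pLKO replicate 2 (adjusted p = 0.073).

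CLDN4, at 123, 121 and 158 FPKM against 119.5 to 121.2, did not pass after shBUB3 (0.14, adjusted p = 0.19), nor did CLDN8 (-0.17, adjusted p = 0.11). The third shBUB3 library lay apart from the other two in TJP1, CLDN3, CLDN4, CLDN7 and OCLN. Without it the changes were -1.18 in TJP1, -1.16 in CLDN3, 0.02 in CLDN4, -0.56 in CLDN7 and 0.66 in OCLN, with the same calls. The counts were 2 of 8 higher, where 33.3% of all genes were, and 4 of 8 lower, where 32.0% were, with a median of -0.30 against 0.01 for all genes.

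Because the 3 pLKO comparisons share their control libraries, the knockdowns were also set against each other. Between shUSP7 and shBUB3, 65.2% of all genes differed in either direction, and so did 4 of 8 members, all higher in shUSP7: TJP1 (1.23 ± 0.13), CLDN4 (0.55 ± 0.091), CLDN3 (0.42 ± 0.11) and F11R (0.34 ± 0.051). Of all genes called in this comparison, 44.5% were higher in shUSP7. CLDN7 (0.03, adjusted p = 0.77) passed there without the third shBUB3 library (0.16, adjusted p = 0.0018). Between shFOXA1 and shUSP7, 70.9% of all genes and 7 of 8 members differed. CLDN3 (1.33 ± 0.11), TJP3 (1.27 ± 0.053), CLDN7 (0.86 ± 0.091), CLDN4 (0.59 ± 0.091), OCLN (0.36 ± 0.10) and TJP1 (0.35 ± 0.13) were higher in shFOXA1, and F11R (-0.24 ± 0.051) was lower. The F11R difference was lost after scaling (-0.08, adjusted p = 0.15), where the higher share of all called genes went from 39.6% to 51.1%, and TJP1 did not pass without shFOXA1 replicate 1 or 2 or without any 1 of the shUSP7 libraries (adjusted p = 0.058 to 0.076). Between shFOXA1 and shBUB3, 73.4% of all genes and 6 of 8 members differed, all higher in shFOXA1: CLDN3 (1.75 ± 0.11), TJP1 (1.58 ± 0.13), TJP3 (1.21 ± 0.053), CLDN4 (1.14 ± 0.091), CLDN7 (0.90 ± 0.091) and OCLN (0.40 ± 0.10). After scaling, which moved that higher share from 37.6% to 50.04%, F11R passed too (0.30).

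After knockdown of EZH2, CLDN4 was the only 1 of the 8 tested members that passed. It stood at 117, 132 and 138 FPKM against 185.6, 182.9 and 189.9 in siCtrl, a drop without overlap (-0.53 ± 0.073, adjusted p = 1.3e-04). After scaling, which moved the median of all genes up by 0.17 and the higher share of all called genes from 32.1% to 49.9%, CLDN4 was at -0.33 (adjusted p = 0.0069). Of the 8 members, 1 was lower, where 43.0% of all genes were, and 0 were higher, where 20.3% were. At an unadjusted p under 0.05 in limma 0 members were higher, but all genes were not counted at that threshold. CLDN3 was at -0.02 (95% interval -0.26 to 0.22), CLDN7 at -0.04 (-0.23 to 0.15), F11R at -0.00 (-0.16 to 0.16) and TJP1 at -0.05 (-0.28 to 0.18), and all 4 turned positive after scaling, F11R with a call (0.19, adjusted p = 0.047). OCLN, at 6.76, 6.83 and 6.59 FPKM against 8.66, 8.08 and 6.92, was at -0.20 (adjusted p = 0.081) and passed without siCtrl replicate 3 (-0.28, adjusted p = 0.029). TJP3 was at -0.17 and CLDN8 at 0.07, neither called. The members' median was -0.05 against -0.16 for all genes.

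CLDN1, a claudin typical of basal and squamous epithelium, stayed under 1 in every library and therefore outside the tests. In siEZH2 it stood at 0.816, 0.839 and 0.650 FPKM against 0.153, 0 and 0.0994 in siCtrl, without overlap. When genes of any level were tested, CLDN1 was higher in siEZH2 (0.71 ± 0.072, adjusted p = 5.5e-04) and in shFOXA1 (0.18 ± 0.065, adjusted p = 0.042), where it stood at 0.288, 0.101 and 0.279 FPKM and overlapped the pLKO range of 0.0306 to 0.165. It was lower in shFoxA1 (-0.30), shFoxA1 WT (-0.30) and shFoxA1 K295A (-0.35), at 0.0441 to 0.153 RPKM against 0.317 to 0.460 in pGIPZ. Values this low rest on few reads, and the log2(value + 1) scale understates their fold.

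**Figure D4:**
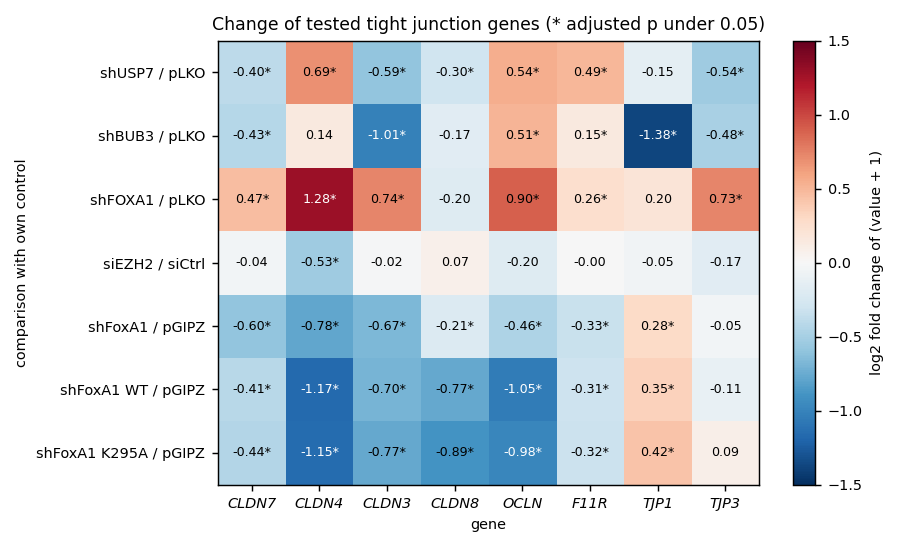
Log2 fold change of (value + 1) of the 8 tested members in each comparison with an own control, with the value written in each cell and an asterisk at an adjusted p under 0.05 in limma. CLDN3, CLDN4, CLDN7, OCLN and F11R are above 0 in the shFOXA1 row and below 0 in the 3 pGIPZ rows.

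Over the 7 comparisons with an own control, CLDN3 and CLDN7 were each called higher in 1 and lower in 5, and CLDN4 was called higher in 2 and lower in 4. OCLN and F11R were each higher in 3 and lower in 3, TJP1 higher in 3 and lower in 1, TJP3 higher in 1 and lower in 2, and CLDN8 lower in 4 and higher in 0. Likeness of pattern was measured as the root mean square difference in log2 fold change over these 7 comparisons, among 10263 genes with a mean of at least 1 in all groups. The gene nearest to CLDN4 was OCLN (0.28), followed by SLC37A1 (0.35) and the water channel gene AQP3 (0.38). OCLN itself was nearest to SLC37A1 (0.17), the stress-induced transcription factor gene ATF3 (0.20) and the nectin gene PVRL4 (0.23). CLDN3 was nearest to CTBP1-AS (0.22), HSH2D (0.26) and PROB1 (0.28), and its nearest member was CLDN7 (0.30). For CLDN7 these were PNPLA7 (0.15), MAMDC4 (0.18) and GALNT18 (0.19), and for CLDN8 TEP1 (0.13), TACC2 (0.16) and ZFP36 (0.19). TJP1 was nearest to TAF7 (0.14), SEPT7 (0.14) and RBBP4 (0.15), TJP3 to GALT (0.15), TREX1 (0.17) and SRSF6 (0.17), and F11R to SNORA45A (0.061), SLC12A9 (0.085) and ANKS1A (0.11). Most members were not close to one another. Counted among all these genes, the nearest member ranked 4 for CLDN3 and 8 for OCLN. It ranked 86 for CLDN7, 127 for CLDN8, 341 for TJP3, 937 for TJP1 and 2960 for F11R. Comparisons within an experiment share control libraries, so these distances are a description.

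Further tight junction and polarity genes, 60 in lists of 16 claudins, 14 membrane proteins and 30 scaffold and polarity proteins, were mixed in direction. In shFOXA1, 22 of 38 tested were higher, where 25.2% of all genes were, and 9 lower, where 45.1% were, with a median of 0.31 against -0.15 for all genes. CLDN20, counted among the higher, averaged 1.26 FPKM in shFOXA1 against 0.525 in pLKO, so it was tested mainly through shFOXA1. CXADR, the coxsackievirus receptor of tight junctions, rose from 9.44 to 50.4 FPKM (2.30 ± 0.088) and the polarity gene LLGL2 from 19.3 to 78.4 FPKM (1.97 ± 0.062), while the claudin CLDN12 fell from 34.3 to 15.6 FPKM (-1.09 ± 0.081) and the scaffold gene MPP6 from 3.42 to 0.816 FPKM (-1.29 ± 0.081). In shFoxA1, 14 of 39 were higher, where 25.0% of all genes were, and 10 lower, where 24.2% were, with a median of -0.02 against 0.00 for all genes. CXADR rose there as well, from 8.28 to 17.6 RPKM (1.00 ± 0.059), and CLDN12 fell (-0.59), so these 2 kept their direction across the experiments in which CLDN3, CLDN4 and CLDN7 did not. The junction gene AMOTL1 rose from 0.159 to 3.48 RPKM (1.95 ± 0.081). Its mean was also under 1 in shFoxA1 WT (0.833) and shFoxA1 K295A (0.722), so it was tested mainly through shFoxA1, where it was high. The other claudins tested in shFoxA1 were 3, and all 3 were lower. In shFoxA1 WT and shFoxA1 K295A, 12 of 39 were higher, where 33.7% and 37.8% of all genes were, and 9 lower, where 11.8% and 12.8% were, with medians of -0.01 and 0.02 against 0.10 and 0.11. After scaling these counts became 7 and 16 in shFoxA1 WT and 5 and 15 in shFoxA1 K295A. CLDN12 fell in both (-0.64 and -0.73).

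In shUSP7, 18 of 38 of these genes were higher, where 29.1% of all genes were, and 8 lower, where 33.0% were (median 0.20 against -0.02), led by the scaffold gene CGN (cingulin, 11.9 to 29.7 FPKM, 1.25 ± 0.044) and, downward, by ARHGEF2 (-1.42 ± 0.11). In shBUB3, 12 of 38 were higher, where 33.3% of all genes were, and 10 lower, where 32.0% were (median 0.04 against 0.01), with CGN (1.05 ± 0.044) and CLDN12 (1.06 ± 0.081) higher and ARHGEF2 (-0.96) lower. In siEZH2, 12 of 36 were higher, where 20.3% of all genes were, and 11 lower, where 43.0% were (median 0.00 against -0.16). LSR, a protein of tricellular contacts (0.76 ± 0.11), and the polarity gene PARD6G (2.23 to 5.01 FPKM, 0.91 ± 0.12) were higher, and CLDN12 (-1.10 ± 0.077) and CGN (-0.85 ± 0.075) were lower. Most other claudins were near 0 throughout: of the 16, only CLDN12, CLDN15 and CLDN23 stayed above 1 in every library, with CLDN12 at 14.3 to 78.8 FPKM and 26.3 to 47.4 RPKM.

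Adherens junctions and desmosomes, which hold cells together below the tight junction, were counted in the same way. In shFOXA1, 6 of 11 tested adherens junction genes were higher and 2 lower, while 1 of 10 desmosome genes was higher and 6 were lower, with medians of 0.48 and -0.69 against -0.15 for all genes, of which 25.2% were higher and 45.1% lower. CDH1 (E-cadherin) stood at 309, 312 and 305 FPKM in shFOXA1, against 156.7, 148.3 and 149.5 in pLKO and 33.7, 34.5 and 27.1 in shBUB3, where it fell by 2.23 on the log2 scale, the lowest value of its list. CDH1 was also lower in shUSP7 (112 FPKM, -0.43) and in siEZH2 (87.8 FPKM against 175.6 in siCtrl). The desmosome gene PERP fell in shFOXA1 from 35.1 to 8.54 FPKM (-1.92 ± 0.047) and in shFoxA1 from 57.1 to 37.0 RPKM (-0.61 ± 0.029). In shFoxA1, 6 of 11 adherens junction genes were higher, where 25.0% of all genes were, and 3 lower, where 24.2% were (median 0.20 against 0.00), and EPCAM fell from 67.3 to 30.3 RPKM (-1.13 ± 0.045). In shFoxA1 WT and shFoxA1 K295A, 7 of 11 were lower, where 11.8% and 12.8% of all genes were, and 1 higher, where 33.7% and 37.8% were, with medians of -0.19 and -0.18 against 0.10 and 0.11. In shUSP7, 7 of 11 were higher, where 29.1% of all genes were, and 2 lower, where 33.0% were. In shBUB3 the counts were 3 higher and 5 lower (33.3% and 32.0% of all genes), and in siEZH2 3 and 4 (20.3% and 43.0%). Of 10 desmosome genes, 3 were higher and 3 lower in both shUSP7 and siEZH2, and 5 and 4 in shBUB3. In shFoxA1, shFoxA1 WT and shFoxA1 K295A, 1, 3 and 1 of them were higher and 4, 2 and 2 lower, against the same shares of all genes.

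Among 18 listed transcriptional regulators of epithelial junction genes, ELF3, an epithelial ETS factor, was highest in shUSP7 (11.7 to 45.8 FPKM, 1.89 ± 0.081) and in shFOXA1 (11.7 to 34.3 FPKM, 1.48 ± 0.081). In pGIPZ, shFoxA1, shFoxA1 WT and shFoxA1 K295A it stood at 48.2, 37.7, 19.4 and 21.7 RPKM. SNAI2, an E-box-binding repressor of CDH1 and claudin genes, stood at 10.6, 13.1 and 10.4 RPKM in shFoxA1 against 0.424, 0.415 and 0.475 in pGIPZ (3.10 ± 0.14, adjusted p = 5.1e-09). It passed the filter only through the shFoxA1 libraries, where it was high, so its call is a description. Its level was 1.171, 1.502 and 0.653 RPKM in shFoxA1 WT and 0.559, 0.614 and 0.801 in shFoxA1 K295A. In shFOXA1, SNAI2 stood at 0.884, 1.06 and 1.08 FPKM against 0.316, 0.520 and 0.426 in pLKO, too low to be tested. CDH1 stood at 151 ± 3.56 RPKM in shFoxA1 and 156 ± 2.53 in pGIPZ, and at 124 ± 3.29 in shFoxA1 WT and 128 ± 2.08 in shFoxA1 K295A. KLF4 fell in shFoxA1 from 24.8 to 16.5 RPKM (-0.55 ± 0.049) and in shFoxA1 WT to 6.14 RPKM (-1.85 ± 0.049). The part of these regulators in the members' changes was not tested.

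**Figure D5:**
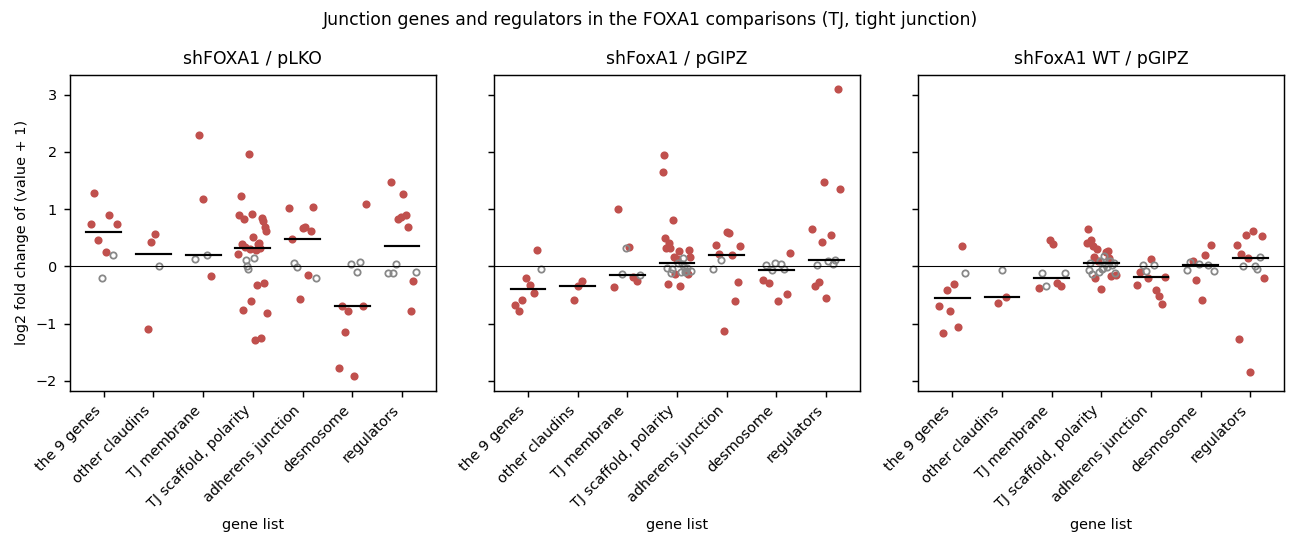
Log2 fold change of (value + 1) of each tested gene in the 9 described here, in the lists of other tight junction, adherens junction and desmosome genes, and in the list of regulators, for 3 FOXA1 comparisons. Filled points are called at an adjusted p under 0.05, open points are not, and bars are medians. The 8 tested members have a median of 0.60 in shFOXA1, -0.40 in shFoxA1 and -0.56 in shFoxA1 WT.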

How the data were processed

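RNA-seq of LNCaP cells was deposited as 1 table of FPKM values (pLKO and siRNA experiments) and 1 table of RPKM values (pGIPZ experiment), which the authors scaled by gene length and library total. The submitters' processing notes name STAR and hg38. How reads were counted, and with which annotation, was not given in the sources used here. Each table had 26475 entries, of which 32 had no values. Samples were grouped by their titles.

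Values were taken as log2(value + 1), and genes that reached 1 in 3 or more libraries of an experiment were fitted, 1 fit per experiment, in limma 3.58.1 (R 4.3.3) with an intensity trend. Moderated two-sided tests gave p-values with Benjamini-Hochberg adjustment over all genes tested in each of 13 comparisons, called at an adjusted p under 0.05. The fit was tested on simulated data. With 3 libraries a group, an exact permutation p cannot go below 0.1, so none was used. Read totals are not in the tables, so counting intervals could not be given and precision rests on replicates.

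The members and gene lists were chosen with earlier results of these data known. The other tight junction genes form 3 lists (claudins, membrane proteins, scaffold and polarity proteins), and genes named from a list are among those that, in a comparison with an own control, had its highest or lowest called change. CDH1, ELF3 and SNAI2 were followed across groups after their values were seen. Promoter windows are from RefSeq (GRCh38.p14). Alternatives were a pseudocount of 0.1, no filter or a minimum of 5, median-ratio scaling, a replicate block, fits of 2 groups, no trend and leaving out each library. Python 3.11.15 with pandas 2.3.3 and matplotlib 3.10.9 did the rest.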

Additional observations from a re-analysis of the deposited data

Results flagged for a closer look

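Of the 9 genes, 5 changed in opposite directions in the 2 FOXA1 knockdowns, with every knockdown library above every control in the pLKO experiment and below every control in the pGIPZ experiment. Of all 12042 genes tested in both experiments, 614 (5.10%) did the same and 1158 (9.62%) did the reverse. The log2 fold changes in the pLKO and pGIPZ experiments were 0.74 and -0.67 for CLDN3, 1.28 and -0.78 for CLDN4, 0.47 and -0.60 for CLDN7, 0.90 and -0.46 for OCLN, and 0.26 and -0.33 for F11R. These differences were not tested, since the tables were normalized separately. The experiments differ in vector, control, table and depth of FOXA1 loss, among other things, which cannot be told apart here. BUB3 and EZH2 RNA also fell in shFOXA1 (log2 fold changes of -1.17 and -0.98) and were not called in shFoxA1 (-0.05 and -0.03). The part of this in the result was not tested. After median-ratio scaling the values were 0.93 and -0.68 for CLDN3, 1.47 and -0.79 for CLDN4, 0.66 and -0.61 for CLDN7, 1.08 and -0.48 for OCLN, and 0.44 and -0.34 for F11R.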

How the results depend on the processing

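All 40 counts of members and of other tight junction genes stayed within 1.5 times under a pseudocount of 0.1, without the intensity trend and with a replicate block. With the replicate block 6 members stayed higher in shFOXA1 and 6 lower in shFoxA1, and it changed no call of a member. Same-numbered libraries were not paired, since their deviations from group means correlated at -0.069 to 0.041 in the pGIPZ, -0.18 to 0.13 in the pLKO and -0.13 to 0.058 in the siRNA experiment.

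Without a filter, 13 other tight junction genes were lower in shUSP7 (8 in the report) and 1 member, CLDN1, was higher in siEZH2 (0). With a minimum of 5, 5 were lower in shUSP7 and 3 in shBUB3 (10). In the fit of 2 groups alone 1 member was higher in shBUB3 (2). After median-ratio scaling 1 member was higher in siEZH2, 5 were lower in shFoxA1 WT and 5 in shFoxA1 K295A against shFoxA1 (3 each), 0 were higher in the latter (3) and 0 lower in shFOXA1 against shUSP7 (1), while the other tight junction genes went to 7 higher and 16 lower in shFoxA1 WT and 5 and 15 in shFoxA1 K295A (12 and 9). Leaving out a library gave 1 to 2 members higher in shBUB3, 0 to 1 lower in shFOXA1 and 1 to 2 lower in siEZH2. Between K295A and wild type, 23 genes of all were called, against 14 with the replicate block, 6 in a fit of 2 groups, 30 after scaling, 26 with a pseudocount of 0.1, 11 without a filter and 8 without the trend.

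Some changes that were not called in the report turned sign. After scaling these were F11R (0.19), CLDN3 (0.17), CLDN7 (0.15) and TJP1 (0.13) in siEZH2, TJP3 in shFoxA1 K295A (-0.024), F11R (-0.075) and TJP1 (-0.028) in shFoxA1 WT against shFoxA1, F11R in shFoxA1 K295A against shFoxA1 (-0.11), CLDN4 in K295A against wild type (-0.0019) and CLDN8 in shFOXA1 against shBUB3 (0.12). Leaving out a library gave, in siEZH2, -0.043 to 0.041 for F11R, -0.15 to 0.011 for TJP1, -0.10 to 0.038 for CLDN7, -0.047 to 0.13 for CLDN8 and -0.13 to 0.065 for CLDN3. It gave -0.079 to 0.0092 for CLDN3 in shFoxA1 WT and -0.012 to 0.029 for F11R in shFoxA1 K295A against shFoxA1, and -0.034 to 0.0076 for F11R and -0.00014 to 0.12 for OCLN between K295A and wild type. Against shBUB3 it gave -0.043 to 0.16 for CLDN7 and -0.11 to 0.13 for OCLN in shUSP7, and -0.078 to 0.061 for CLDN8 in shFOXA1. The cause was not tested. Read totals are not in the tables, so low values such as those of CLDN1 carry a counting error that could not be computed.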
